A study of Mus musculus with 20 samples.

Results

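The promoters described here belong to 4 enzyme families that clear drugs, hormones and environmental chemicals, the cytochromes P450 (Cyp), the UDP-glucuronosyltransferases (Ugt), the glutathione S-transferases (Gst) and the sulfotransferases (Sult). They were taken by gene symbol: every symbol that is Cyp or Ugt followed by a number, or that begins with Gst or Sult, other than the 2 steroidogenic genes Cyp11a1 and Cyp17a1. This gave 154 of 22480 promoters, 96 of Cyp, 20 of Ugt, 21 of Gst and 17 of Sult genes, on 15 chromosomes. DNA methylation was measured in sperm of 20 first-generation male mice at 8 weeks of age, 5 in each of 4 groups. Mothers of the C57BL/6J DEHP and FVB/N DEHP groups received 300 mg/kg/day of di(2-ethylhexyl) phthalate (DEHP), a plasticizer, in corn oil by mouth from gestation day 9 to 19, and mothers of the C57BL/6J control and FVB/N control groups received corn oil alone over the same days. Both strains are inbred, no genotype was altered, the sperm came from the epididymis and vas deferens, and the males themselves were not dosed after birth. The DEHP libraries and the control libraries were submitted separately, each submission with both strains and with a slightly different read length, so in any comparison of DEHP with control the treatment cannot be told apart from the submission, whereas the strains were compared within a submission.

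P450 enzymes add an oxygen to a lipophilic substrate, and glucuronosyltransferases, sulfotransferases and glutathione transferases then attach a sugar acid, a sulfate or glutathione, which makes the product soluble enough to be excreted. DEHP is cleaved by lipases to a monoester, which is oxidized by P450 enzymes and excreted in large part as a glucuronide. The genes are expressed mainly in liver, gut and kidney, in clusters of tandem duplicates, and some of the glutathione transferases are abundant in testis and sperm. In mammalian genomes most CG pairs are methylated, except in CG-rich islands around the starts of widely expressed genes.

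Methylated DNA was captured with a methyl-binding protein domain and sequenced. A value gives normalized reads over a window from 2000 bases upstream to 200 bases downstream of a gene start (a 2200-base probe, mm10). The windows are equal in length but differ in CG sites and in the share of unique sequence. A level is therefore not the share of methylated sites, and few reads at a CG-poor window do not show low methylation. For each group the mean and the SD of 5 animals were used. Values of single libraries and their depth were not used here, so the lowest and highest value that any animal could have were bounded from the mean and SD, and 2 groups were called separated where every animal of one had to lie above every animal of the other. This call is a lower limit. A moderated test (limma, Benjamini-Hochberg over all 22480 promoters) was also computed from the means and SDs on 3 scales, as deposited, with equal sums over promoters and with equal medians, since the sums of the group means ranged from 141092 in the FVB/N control group to 226268 in the C57BL/6J control group. The log2 ratio of DEHP over control (after adding 1 read to each mean, as in every log2 ratio here) had a median over all promoters of −0.10 for C57BL/6J and of 0.35 for FVB/N. Markers of sperm DNA were read beside them. H19, an imprinted gene methylated on the paternal allele, had 25.3 and 18.0 normalized reads in control and DEHP sperm of C57BL/6J and 18.8 and 17.5 in FVB/N, Meg3 5.2 to 25.8, and Rasgrf1, also paternally methylated, only 2.4 to 3.7 over the groups. Of the 6 maternally methylated genes 5 were at 8.1 or below in every group and Nnat was at 9.5 to 26.5. Promoters of 5 germline genes had 0.6 to 14 reads.

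Promoter sequences show the range of CG content on which the values below depend. Shown are 250 bases upstream to 50 bases downstream of the gene start (RefSeq, GRCm38.p6, which has the mm10 coordinates), 5′ to 3′ on the gene's strand, with each CG pair in capitals. Of the 154 genes, 123 are in that sequence table. The first 3 promoters are those of the 154 that limma called between DEHP and control on all 3 scales in both strains. The next pair are neighbours on chromosome 19 with many and with few reads, and the last pair are the Gstp paralogs on the same chromosome, which differ in level.
Sult2a4, chr7:13989539-13989838, minus strand: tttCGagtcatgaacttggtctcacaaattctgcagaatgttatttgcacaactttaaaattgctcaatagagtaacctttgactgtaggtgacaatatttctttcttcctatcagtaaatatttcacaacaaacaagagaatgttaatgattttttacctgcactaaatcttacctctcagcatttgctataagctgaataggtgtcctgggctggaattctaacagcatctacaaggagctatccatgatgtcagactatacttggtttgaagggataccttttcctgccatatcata
Ugt1a9, chr1:88070529-88070828, plus strand: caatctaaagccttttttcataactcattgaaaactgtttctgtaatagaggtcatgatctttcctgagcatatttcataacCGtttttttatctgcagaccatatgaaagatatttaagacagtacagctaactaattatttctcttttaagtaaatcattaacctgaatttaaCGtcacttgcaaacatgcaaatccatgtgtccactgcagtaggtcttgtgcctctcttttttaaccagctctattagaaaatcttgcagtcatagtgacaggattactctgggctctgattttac
Ugt2a2, chr5:87482209-87482508, minus strand: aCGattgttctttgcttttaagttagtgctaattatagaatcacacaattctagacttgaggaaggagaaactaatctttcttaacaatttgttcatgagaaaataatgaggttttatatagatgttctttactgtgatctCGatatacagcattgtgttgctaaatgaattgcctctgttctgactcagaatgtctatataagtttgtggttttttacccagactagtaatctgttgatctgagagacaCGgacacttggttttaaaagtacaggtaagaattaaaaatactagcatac
Cyp26c1, chr19:37685430-37685729, plus strand: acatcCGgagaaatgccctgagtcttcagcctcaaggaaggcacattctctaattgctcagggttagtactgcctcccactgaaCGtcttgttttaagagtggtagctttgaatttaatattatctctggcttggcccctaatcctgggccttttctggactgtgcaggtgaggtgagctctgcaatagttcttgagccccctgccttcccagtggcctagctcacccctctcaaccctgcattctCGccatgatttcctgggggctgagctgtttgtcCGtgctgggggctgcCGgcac
Cyp26a1, chr19:37697558-37697857, plus strand: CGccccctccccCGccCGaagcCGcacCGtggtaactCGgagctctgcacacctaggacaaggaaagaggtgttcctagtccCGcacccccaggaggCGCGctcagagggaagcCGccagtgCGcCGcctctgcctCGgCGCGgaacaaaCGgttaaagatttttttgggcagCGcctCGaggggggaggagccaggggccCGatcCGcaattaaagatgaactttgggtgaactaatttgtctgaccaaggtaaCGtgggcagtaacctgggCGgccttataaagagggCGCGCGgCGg
Gstp1, chr19:4037863-4038162, minus strand: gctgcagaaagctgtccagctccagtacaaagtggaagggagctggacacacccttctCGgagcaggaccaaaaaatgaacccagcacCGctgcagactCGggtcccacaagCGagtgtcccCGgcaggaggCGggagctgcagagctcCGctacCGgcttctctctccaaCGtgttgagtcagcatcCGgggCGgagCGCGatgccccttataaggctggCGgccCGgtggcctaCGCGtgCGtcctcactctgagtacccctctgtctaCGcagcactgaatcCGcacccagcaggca
Gstp2, chr19:4042172-4042471, minus strand: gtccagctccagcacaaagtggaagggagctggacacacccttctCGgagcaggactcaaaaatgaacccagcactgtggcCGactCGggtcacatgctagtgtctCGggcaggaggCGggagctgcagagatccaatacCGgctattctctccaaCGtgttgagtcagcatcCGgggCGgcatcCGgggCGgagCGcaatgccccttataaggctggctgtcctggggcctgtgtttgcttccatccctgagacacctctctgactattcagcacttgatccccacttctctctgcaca
These stretches hold 1, 2, 3, 5, 26, 20 and 12 CG pairs in the order printed. The whole 2200-base window of Sult2a4 holds 48 CG pairs, of which 37 lie between positions −1000 and −200 from the start and 42 (87.5%) in repeat-masked sequence, whereas the start shown has 1.

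The windows were poor in CG. They held a median of 16 CG sites (range 3 to 118) against 45 over all promoters, and only 25 of 154 held more than 40. Over all promoters 12263 of 22480 held more than 40. Over the 154 promoters the level correlated with CG sites with a Spearman rho between 0.45 (FVB/N DEHP) and 0.54 (C57BL/6J control), while over all promoters rho lay between −0.25 and −0.05. These correlations run across promoters that share libraries and base composition and are descriptions. By class of CG content the values were close to those of all promoters with as many sites. At 1 to 10 sites the median was 1.20 normalized reads in the C57BL/6J control group against 1.40 over all promoters, at 11 to 20 sites 5.0 against 6.90, at 21 to 40 sites 14.95 against 14.20, and above 40 sites 4.70 against 4.20. The signal was highest at intermediate CG content and fell again at the CG-rich promoters.

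**Figure D1:**
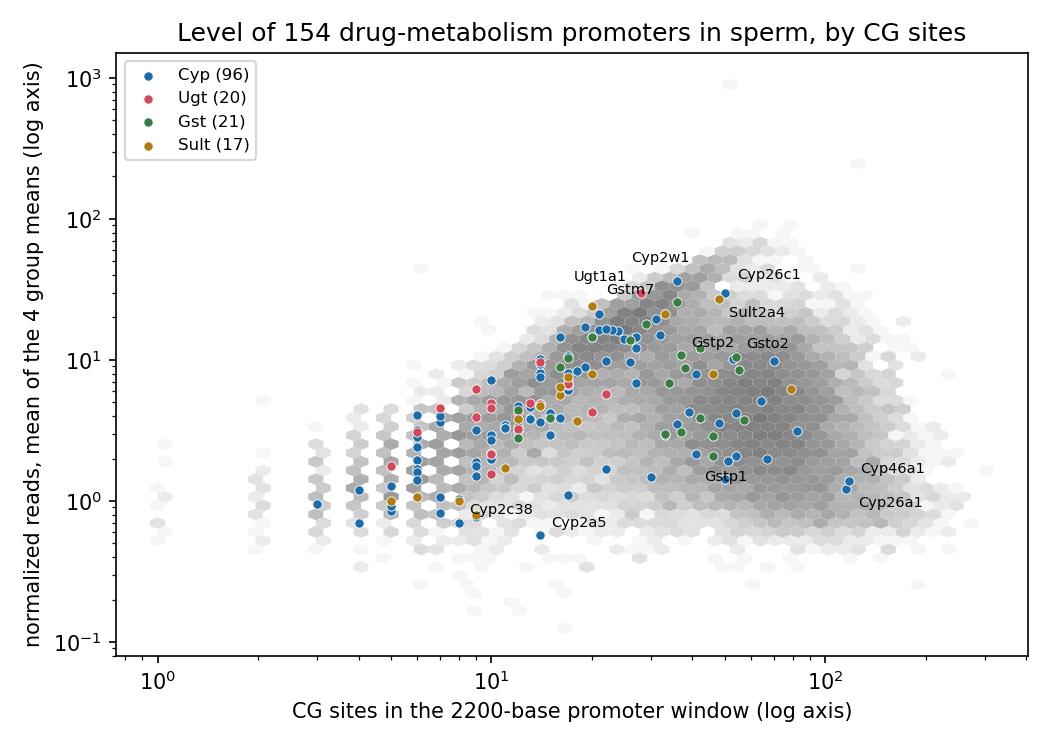
Normalized reads (mean of the 4 group means, log axis) against CG sites in the 2200-base window (log axis) for the 154 promoters, coloured by family, over all 22480 promoters as grey hexagons that are darker where more promoters lie. Levels rise with CG sites up to Cyp2w1 with 36 sites, and the CG-rich promoters of Cyp26a1, Cyp46a1 and Gstp1 lie far below Cyp26c1 and Sult2a4.

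Among the P450 families 1 to 3, which oxidize most drugs, 57 promoters had a median of 12 CG sites. The highest was Cyp2w1, with 63.5 ± 26.1 (SD, n = 5 in this and every group), 22.1 ± 10.7, 32.1 ± 23.4 and 27.5 ± 6.9 normalized reads in control and DEHP sperm of C57BL/6J and then in control and DEHP sperm of FVB/N, the order used throughout. The lowest was Cyp2a5, at 0.9 ± 1.3, 0.7 ± 1.2, listed at 0 in FVB/N controls, and 0.7 ± 0.4. The 15 Cyp2c promoters had a median of only 8 CG sites, and 7 of them were below 1 normalized read in C57BL/6J controls. The 10 Cyp2d promoters, with a median of 17.5 sites, had a median of 12.7 reads in the same group. The dioxin-responsive Cyp1a1 and Cyp1a2, neighbours on chromosome 9, had 7.8 ± 2.6 and 16.7 ± 6.1 reads in C57BL/6J controls with 14 and 25 sites. Cyp1b1, which has 82 sites, had 3.5 ± 2.2.

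In the Cyp4 family, which hydroxylates fatty acids, the 22 promoters ranged from Cyp4a12b (4 sites, at 0 in the FVB/N control column and at 2.2 ± 1.2 in C57BL/6J with DEHP) to Cyp4b1-ps2, an unprocessed pseudogene (27.6 ± 10.4 in C57BL/6J controls). The peroxisome proliferator targets Cyp4a10 and Cyp4a14 were low, at 1.2 ± 0.9 and 2.6 ± 1.8 in C57BL/6J controls. Among the 17 other Cyp promoters the 3 Cyp26 genes, whose products degrade retinoic acid, spanned the whole range. Cyp26a1, with 115 CG sites, was the lowest at 1.9 ± 1.6, 1.0 ± 1.1, 1.1 ± 0.8 and 0.9 ± 0.9 normalized reads. Its neighbour Cyp26c1, with 50 sites, was the highest of the class at 58.3 ± 11.5, 17.7 ± 6.8, 25.6 ± 3.9 and 16.9 ± 4.9. Cyp26b1, which shields germ cells of the fetal testis from retinoic acid, had 23 sites and 23.5 ± 7.5, 13.0 ± 6.0, 14.8 ± 8.1 and 13.4 ± 4.3 reads. Cyp51, which makes a cholesterol precursor in every cell, stood at 0.5 ± 0.7, 2.3 ± 2.0, 1.0 ± 1.0 and 1.9 ± 1.4, and aromatase (Cyp19a1) at 11 ± 4.0, 11.4 ± 4.3, 5.9 ± 3.0 and 14.5 ± 4.5. The window of Cyp19a1 is 74668 bases from the outermost start of that gene in GENCODE.

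Among the conjugating enzymes the Gstm cluster on chromosome 3 had the highest median of the classes, with 20.6 normalized reads over 7 promoters in C57BL/6J controls. Gstm7 was highest at 38.9 ± 10.6, 22.4 ± 7.4, 19.5 ± 10.4 and 21.5 ± 6.0, and Gstm5 lowest at 1.9 ± 1.4, 5.3 ± 3.2, 2.0 ± 1.9 and 3.1 ± 0.6, although both windows hold nearly the same number of CG sites, 36 and 37. The paralogs Gstp1 and Gstp2 also differed in level. Gstp1 had 46 sites and 2.6 ± 2.2, 3.4 ± 1.6, 1.0 ± 1.0 and 1.3 ± 0.9 reads, and Gstp2 37 sites and 13.2 ± 7.5, 8.2 ± 3.4, 15.0 ± 7.4 and 6.6 ± 1.7. The Gstp2 start used for the window is 3802 bases from the outermost GENCODE start. The 4 Gsta promoters stayed between 1.2 and 6.0 reads in all groups, with Gsta1 highest and Gsta2 lowest. Gsta4, which detoxifies lipid peroxidation products, has 46 CG sites and had 4.7 ± 1.8 reads in C57BL/6J controls, and Gstt1 8.8 ± 4.2, Gstm1 13.4 ± 2.1 and Gstk1 1.4 ± 1.0. The phenol sulfotransferase Sult1a1 stood at 5.7 ± 0.9 and the estrogen sulfotransferase Sult1e1 at 4.0 ± 1.7. In the Sult1 class Sult1c2 was highest (8.2 ± 3.6) and Sult1b1 lowest (3.3 ± 0.5). The cholesterol sulfotransferase Sult2b1 had 10.2 ± 4.1 and the brain-expressed Sult4a1 8.5 ± 2.9. The windows of Gsta2, Gsta4 and Sult2b1 are 8643, 9192 and 25114 bases from the outermost GENCODE starts of these genes.

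Among controls Sult2a4 stood above the rest of its own cluster of hydroxysteroid sulfotransferases on chromosome 7. The other 5 Sult2a promoters had 6 to 16 CG sites and at most 5.5 normalized reads in C57BL/6J controls, and the lowest of the class, Sult2a2, had 0.2 ± 0.5. Sult2a4 had 48 sites and 50.4 ± 15.1 reads. In DEHP sperm of C57BL/6J its 9.6 ± 3.5 reads were close to the 9.3 ± 4.9 of Sult2a7, the next highest. In FVB/N these promoters had 37.6 ± 6.7 and 5.1 ± 6.1 reads among controls and 11.1 ± 1.8 and 5.8 ± 1.3 with DEHP. Of its window 77.2% was repeat-masked, and 45.4% of the 51-base sequences sampled from it occur once in the genome, against medians of 23.4% and 96.8% over the 154 promoters. Pairs with several positions in the genome were removed by the authors, so its level rests on the part that is unique, and it is uncertain beside windows that are unique throughout.

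The first comparison asks whether sperm of males exposed before birth differed from controls of their strain. As a family, the 154 promoters had higher ratios than the genome at large, with a median log2 ratio of DEHP over control of 0.16 in C57BL/6J (−0.10 over all promoters) and, for FVB/N, 0.62 (0.35 over all). The ratio was above 0 at 94 promoters in C57BL/6J (61.0%, against 43.5% of all promoters) and at 131 in FVB/N (85.1%, against 69.1%). The size of these medians depended on the scale. With groups scaled to equal sums they came to 0.63 for C57BL/6J and 0.57 for FVB/N (0.33 and 0.29 over all promoters), with 124 and 130 of the 154 ratios above 0 (68.6% and 66.6% of all). With groups scaled to equal medians they were 0.10 and 0.12 (−0.16 and −0.17 over all promoters), with 87 and 85 ratios above 0 (41% and 39.8% of all). As deposited the ratio was above 0 in both strains at 87 promoters and below 0 in both at 14. These 2 counts were not made over all promoters, so they do not set the family apart. The ratios of the 2 strains correlated with a Spearman rho of 0.45 over the 154 promoters and 0.53 over all. The ratio followed CG content as it did elsewhere. In C57BL/6J the median log2 ratio as deposited was 0.52 at 1 to 10 CG sites, 0.22 at 11 to 20, −0.33 at 21 to 40 and −0.36 above 40, and over all promoters 0.61, 0.13, −0.41 and −0.16. In FVB/N it was 0.75, 0.82, 0.44 and 0.30, and over all promoters 0.75, 0.71, 0.23 and 0.25. The order over the classes in C57BL/6J was the same on the other scales, but the sign at the CG-richer promoters was not. With equal sums the 4 medians in C57BL/6J were 0.89, 0.70, 0.20 and 0.15, all above 0, and with equal medians 0.43, 0.14, −0.40 and −0.44. In FVB/N they were 0.72, 0.80, 0.40 and 0.25 with equal sums and 0.36, 0.28, −0.08 and −0.17 with equal medians. Once the trend of the ratio on CG sites over all promoters was subtracted, the median of the 154 came to −0.01 for C57BL/6J and 0.06 for FVB/N.

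**Figure D2:**
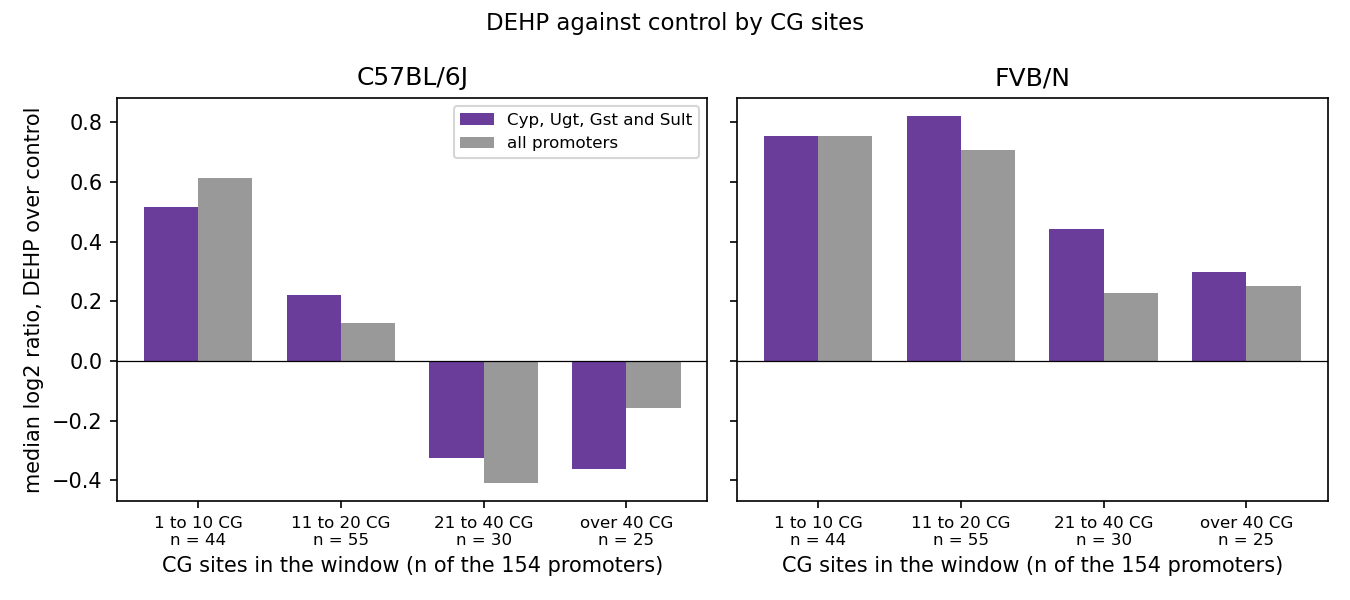
Median log2 ratio of DEHP over control (mean normalized reads plus 1, scale as deposited) by number of CG sites in the window, in C57BL/6J (left) and FVB/N (right), for the Cyp, Ugt, Gst and Sult promoters (purple) and all 22480 promoters (grey). In both strains the CG-poor promoters of either set have the higher medians, from 0.52 at 1 to 10 sites to −0.36 above 40 for the purple bars in C57BL/6J, where the medians above 20 sites are above 0 with equal sums.

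Few single promoters separated. In C57BL/6J 1 was higher with DEHP (Cyp2c39, 0.249% of all promoters being called) and 2 were lower (Cyp26c1 and Sult2a4, 1.42% of all). In FVB/N 3 were higher (Cyp7a1, Ugt1a9 and Ugt2a2, 0.774% of all) and 1 was lower (Sult2a4, 0.859% of all). With limma on all 3 scales 8 promoters were higher and 3 lower in C57BL/6J (2.33% and 2.84% of all promoters), and 2 higher and 2 lower in FVB/N (0.289% and 1.62% of all). By limma as deposited 9 were higher and 8 lower in C57BL/6J (2.64% and 12.8% of all), and 9 and 2 for FVB/N (2.43% and 1.63%). With equal sums limma called 24 higher and 3 lower in C57BL/6J (10.8% and 2.84%), and 5 and 2 for FVB/N (1.28% and 1.78%). Separation with equal sums gave 3 higher and 0 lower in C57BL/6J (1.02% and 0.129%), and 3 and 2 for FVB/N (0.627% and 1.04%), and with equal medians 1 and 3 (0.222% and 1.88%), and 2 and 3 for FVB/N (0.125% and 3.25%). On all 3 scales the shares called lower, 1.95% of the 154 for C57BL/6J and 1.30% for FVB/N, were near those of the genome, and those called higher, 5.19% and 1.30%, were above them, the latter with 2 promoters.

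**Figure D3:**
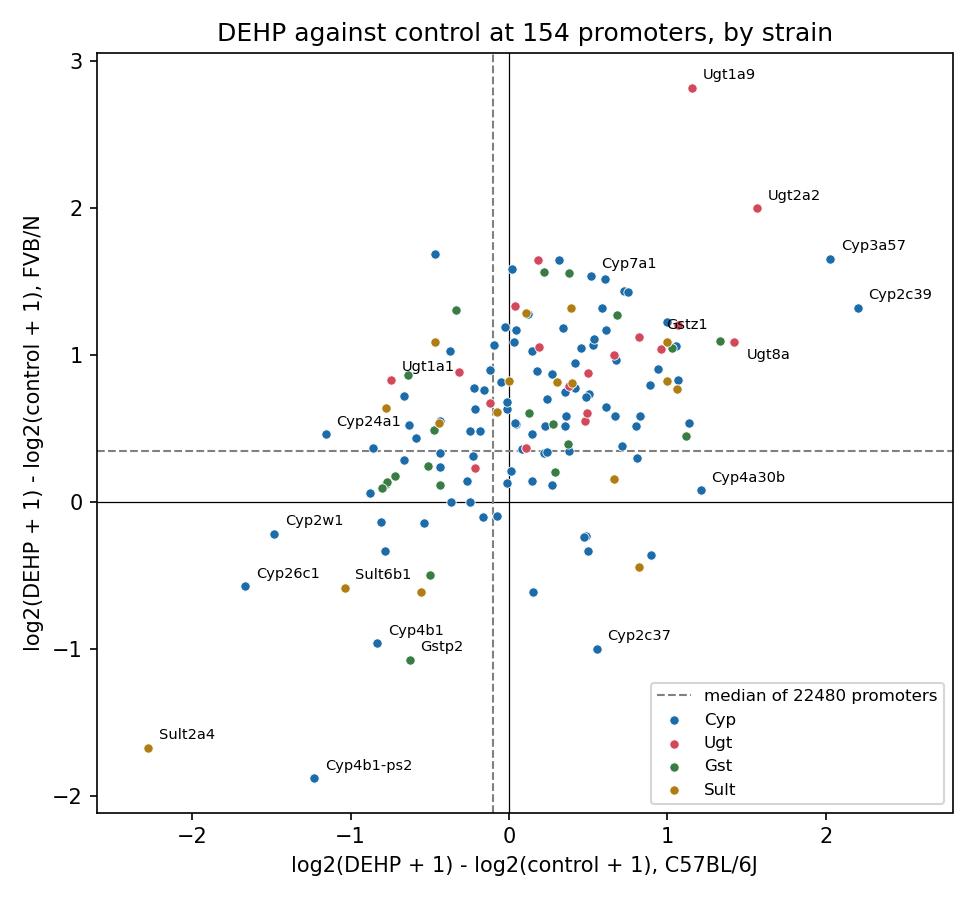
Log2 ratio of DEHP over control (mean normalized reads plus 1) in C57BL/6J (x axis) and FVB/N (y axis) for each of the 154 promoters, coloured by family, with dashed lines at the medians of all promoters (−0.10 and 0.35). Sult2a4 (−2.28 and −1.67) and Cyp4b1-ps2 (−1.23 and −1.88) lie at the lower left, and Ugt1a9 and Ugt2a2 highest in FVB/N.

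Sult2a4 (NCBI gene 434121, chr7:13989389-13991588, minus strand) had the lowest log2 ratio of the 154 in C57BL/6J, and the lowest but for Cyp4b1-ps2 in FVB/N. It had 50.4 ± 15.1 and 9.6 ± 3.5 normalized reads in C57BL/6J control and DEHP sperm and 37.6 ± 6.7 and 11.1 ± 1.8 in FVB/N. Every FVB/N control animal lay between 25.5 and 49.7 reads and every FVB/N DEHP animal between 7.74 and 14.5, and in C57BL/6J the bounds were 23.2 to 77.6 and 3.20 to 16, so the groups did not overlap in either strain. The mean was 5.25-fold lower with DEHP in C57BL/6J (log2 ratio −2.28, limma adjusted p between 0.00015 and 0.0023 over the 3 scales) and 3.39-fold lower in FVB/N (−1.67, adjusted p between 0.00035 and 0.0035). With sums made equal separation of the C57BL/6J groups was no longer shown. It was 1 of 39 promoters (0.173% of all) with lower values in DEHP sperm by separation in both strains, a set with a median of 50 CG sites and 65.8 reads in C57BL/6J controls. By limma on all 3 scales it was 1 of 179 (0.796% of all), and no other of the 154 was among them. The other 5 Sult2a promoters had log2 ratios above 0 in C57BL/6J and did not pass limma on all 3 scales. Of all promoters with 1 to 10 CG sites 86.4% were above 0 in C57BL/6J, and with 11 to 20 sites 56.9%.

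Cyp26c1 (NCBI gene 546726, chr19:37683680-37685879, plus strand) lies in fully unique sequence, and its window holds exon sequence of the gene and of Exoc6. Its 58.3 ± 11.5 reads in C57BL/6J controls fell to 17.7 ± 6.8 with DEHP (3.29-fold, log2 ratio −1.66, limma adjusted p between 0.00025 and 0.0070). The animals of the control group lay above 37.6 reads and those of the DEHP group below 30.0, so they did not overlap, though they could with equal sums. In FVB/N the means were 25.6 ± 3.9 and 16.9 ± 4.9, a log2 ratio of −0.57, and the adjusted p lay between 0.017 and 0.22, on both sides of the threshold. These groups separated with equal medians only. Cyp26a1 and Cyp26b1 had log2 ratios of −0.54 and −0.81 in C57BL/6J, and neither passed on all 3 scales. Cyp2w1 fell in C57BL/6J from 63.5 ± 26.1 to 22.1 ± 10.7 (log2 ratio −1.48, adjusted p between 0.0023 and 0.044), with ranges that could overlap. Its FVB/N means of 32.1 ± 23.4 and 27.5 ± 6.9 were closer together than the control SD.

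On chromosome 4 the pseudogene Cyp4b1-ps2 and the gene Cyp4b1, whose enzyme activates several lung toxicants, had lower means with DEHP in both strains. Cyp4b1-ps2 (NCBI gene 631037, chr4:115582928-115585127, minus strand) went from 31.4 ± 9.5 to 7.8 ± 3.8 in FVB/N, 4.03-fold lower (log2 ratio −1.88, limma adjusted p between 0.0014 and 0.0080). The groups separated with equal sums and with equal medians, but not as deposited. In C57BL/6J it had 27.6 ± 10.4 and 11.2 ± 3.2 (log2 ratio −1.23, adjusted p between 0.016 and 0.17). Of its CG sites 77.4% lay in repeat-masked sequence. Cyp4b1, in a window with 1 variant between the strains and no masked CG site, had 11.1 ± 3.0 and 5.8 ± 3.4 reads in control and DEHP sperm of C57BL/6J and 6.8 ± 2.1 and 3.0 ± 0.9 in those of FVB/N. It passed with equal medians but not on all 3 scales (adjusted p between 0.046 and 0.49, and between 0.038 and 0.14).

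Other promoters passed limma with equal medians but not on all 3 scales, equal medians being the scale on which 14.9% of all promoters were called lower for C57BL/6J and 5.85% for FVB/N. In C57BL/6J 13 of the 154 were called lower on this scale. Sult6b1 had 37.8 ± 7.1 and 17.9 ± 4.7 there (adjusted p between 0.0076 and 0.23 over the scales) and Cyp24a1, which inactivates vitamin D, 16.6 ± 3.8 and 6.9 ± 2.5 (between 0.0044 and 0.14). In FVB/N 7 were called lower, with Sult6b1 (24.2 ± 8.0 and 15.8 ± 7.0), Sult5a1 (22.9 ± 8.8 and 14.6 ± 1.7) and Gstp2 (15.0 ± 7.4 and 6.6 ± 1.7, log2 ratio −1.07) among them. None of these 3 passed on all 3 scales in FVB/N. Gstp1, the paralog of Gstp2, had FVB/N means of 1.0 ± 1.0 and 1.3 ± 0.9 and did not pass.

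Ugt1a9 and Ugt2a2 were higher with DEHP in both strains by limma on all 3 scales, 2 of 15 such promoters in the genome (0.0667% of all). The 15 had a median of 13 CG sites. Ugt1a9 (NCBI gene 394434, chr1:88068779-88070978, plus strand), which glucuronidates phenols, went from 0.4 ± 0.6 to 8.9 ± 2.4 normalized reads in FVB/N (log2 ratio 2.82, limma adjusted p between 0.0037 and 0.0055). No FVB/N control animal could exceed 1.61 reads and no DEHP animal could lie below 4.47, and the separation held on all 3 scales. In C57BL/6J it went from 2.9 ± 1.8 to 7.7 ± 3.2 (log2 ratio 1.16, adjusted p between 0.0072 and 0.041), with ranges that could overlap. Ugt2a2 (NCBI gene 552899, chr5:87482059-87484258, minus strand), of a subfamily known from olfactory epithelium, went from 1.4 ± 2.0 to 6.1 ± 2.3 in C57BL/6J (log2 ratio 1.56, adjusted p between 0.0028 and 0.010) and from 0.5 ± 0.6 to 5.0 ± 1.6 in FVB/N (2.00, between 0.022 and 0.048). Its FVB/N groups separated as deposited and with equal sums, and could not be shown to with equal medians. Both windows are CG-poor, with 13 and 12 sites, in the class of 11 to 20 sites.

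All 10 Ugt2 promoters had a ratio above 0 in FVB/N and 9 of 10 in C57BL/6J, the exception being Ugt2b1 (7.7 ± 2.7 and 6.0 ± 2.4). With equal sums the counts were 10 in FVB/N and 10 in C57BL/6J (66.6% and 68.6% of all promoters). With equal medians they were 10 in FVB/N and 8 in C57BL/6J (39.8% and 41% of all). As deposited, the ratio over all promoters with 1 to 10 CG sites was above 0 at 86.4% for C57BL/6J and 89.4% for FVB/N. With 11 to 20 sites it was above 0 at 56.9% and 87.8%, so most promoters this poor in CG shared the direction. With equal medians the median log2 ratios of these 2 classes were 0.53 and 0.06 for C57BL/6J and 0.35 and 0.16 for FVB/N. The steroid-conjugating Ugt2b5, the lowest of the class, had 0.7 ± 1.6, 2.3 ± 1.0, 0.7 ± 1.0 and 2.5 ± 1.5, and Ugt2b34 3.0 ± 2.4, 4.2 ± 2.4, 1.6 ± 1.6 and 3.5 ± 1.9. Of the class, Ugt2a2 alone passed limma on all 3 scales.

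Cyp7a1 (NCBI gene 13122, chr4:6275432-6277631, minus strand), the rate-limiting enzyme of bile acid synthesis, had 2.0 ± 0.9 reads in FVB/N controls and 7.7 ± 0.8 with DEHP, 3.85-fold higher (log2 ratio 1.54). The animals lay below 3.75 and above 6.13, and separated on all 3 scales, while the limma adjusted p ranged from 0.014 to 0.088 and missed the threshold with equal medians. In C57BL/6J the means were 3.4 ± 2.2 and 5.3 ± 1.7 (log2 ratio 0.52, adjusted p between 0.10 and 0.49). Cyp2c39 (NCBI gene 13098, chr19:39508822-39511021, plus strand), of the arachidonic acid and drug oxidizing Cyp2c cluster, had 3.6 ± 0.8 reads in C57BL/6J with DEHP and is listed at 0 in the controls of that strain (limma difference 3.60 ± 0.90 SE, adjusted p between 0.0033 and 0.0044). Its groups separated on all 3 scales. In FVB/N it had 0.8 ± 1.4 and 3.5 ± 2.8, with ranges that could overlap.

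The other promoters higher with DEHP on all 3 scales in C57BL/6J also had low control means, 0.2 to 4.5 reads. Cyp3a57 went from 0.2 ± 0.5 to 3.9 ± 2.1 (adjusted p between 0.0033 and 0.0049) and had FVB/N means of 0.3 ± 0.6 and 3.1 ± 1.3 (between 0.043 and 0.096). Gstz1, an isomerase of tyrosine breakdown and the CG-richest of them with 42 sites, went from 1.9 ± 2.2 to 6.3 ± 1.0 (between 0.0050 and 0.027). Ugt8a, which makes the galactolipid of myelin and was the lowest of the 3 Ugt3 and Ugt8 promoters (Ugt3a2 was highest), went from 2.4 ± 2.7 to 8.1 ± 3.7 (between 0.0032 and 0.018), and Cyp4a30b from 0.9 ± 1.0 to 3.4 ± 1.6 (between 0.0086 and 0.036). The window of Ugt8a is 18034 bases from the outermost GENCODE start and holds no exon of that gene in GENCODE, so it may not be the promoter in use. In FVB/N none of Gstz1, Ugt8a and Cyp4a30b passed on any of the 3 scales, with means of 2.0 ± 0.9 and 5.4 ± 2.1, 2.1 ± 2.0 and 5.6 ± 3.0, and 0.8 ± 1.4 and 0.9 ± 0.7. Ugt1a5, chosen for description after its values were seen as it lies in the Ugt1a cluster, was the remaining one (4.5 ± 2.3 and 10.5 ± 3.2 in C57BL/6J).

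**Figure D4:**
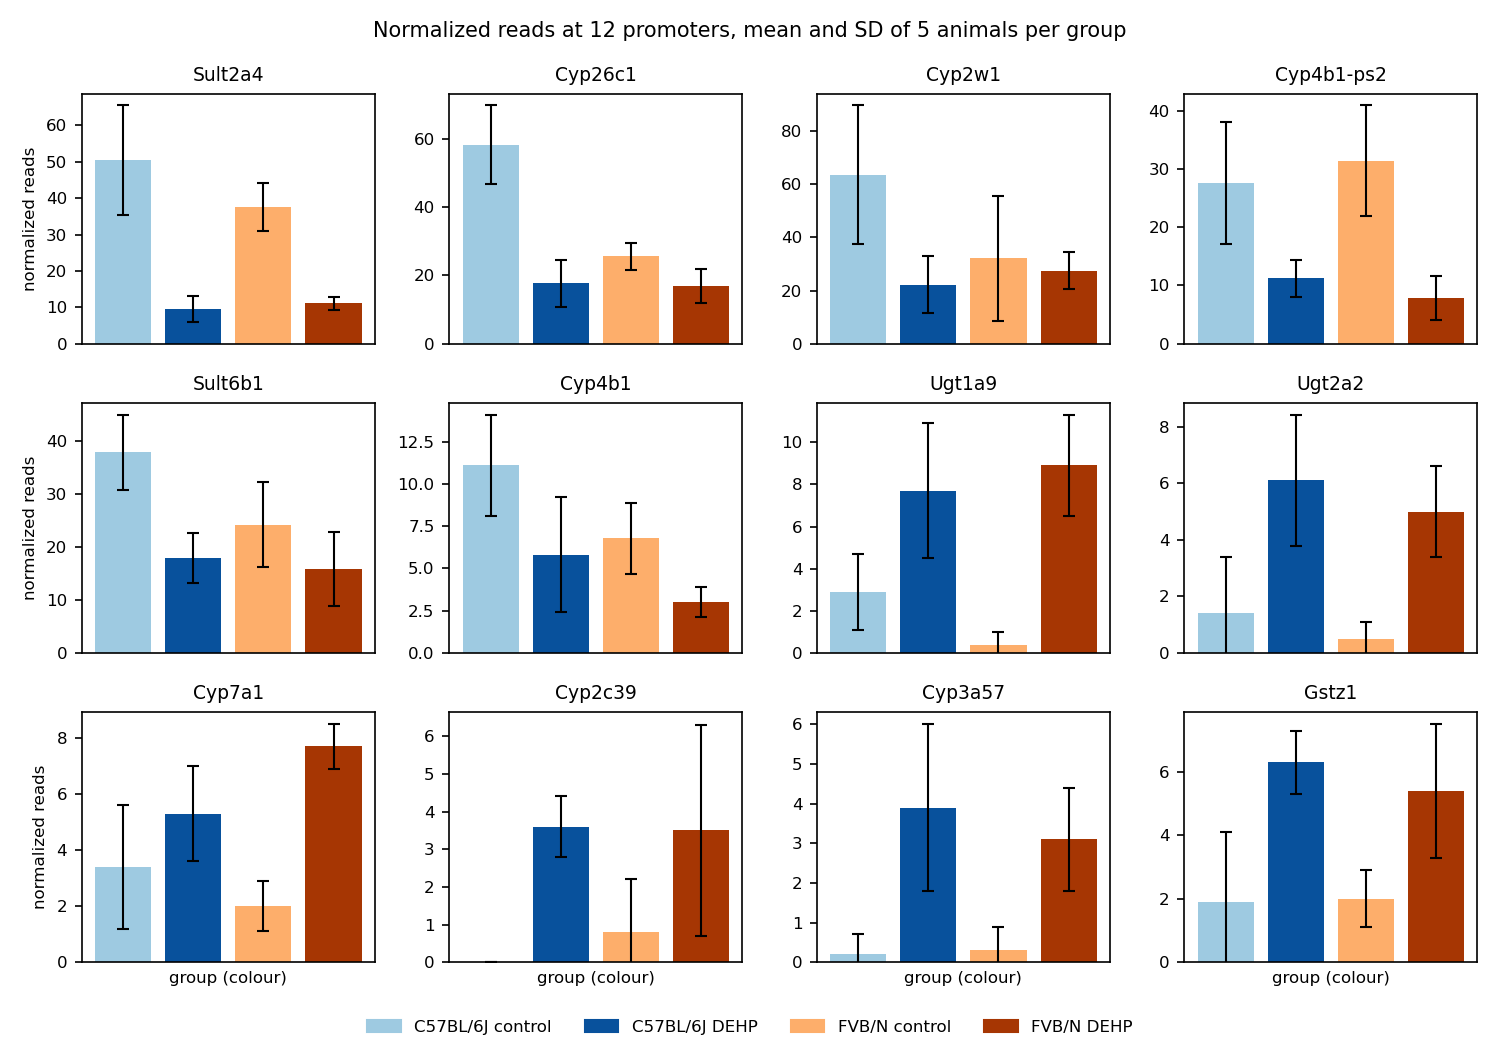
Normalized reads at 12 promoters with differences between DEHP and control, as mean (bar, axis from 0) and SD (error bar) of 5 animals in each of the 4 groups. Bars of Sult2a4 fall from 50.4 to 9.6 (C57BL/6J) and from 37.6 to 11.1 (FVB/N), and those of Ugt1a9 rise from 2.9 to 7.7 and from 0.4 to 8.9.

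Most classical inducible or phthalate-linked genes gave no call on all 3 scales. Cyp1a1, Cyp1a2, Cyp1b1, Cyp2b10, Cyp2e1, Cyp3a11, Cyp4a10, Cyp4a14, Gsta1, Gsta4, Gstm1, Gstt1, Gstk1, Sult1a1, Sult1e1, Sult2b1 and Sult4a1 were among them in both strains. Cyp2b10, a target of the xenobiotic receptor CAR, had 10 ± 3.5 and 7.5 ± 4.3 reads in C57BL/6J, whereas FVB/N had 4.6 ± 3.4 and 10.4 ± 3.8. Cyp2e1, the ethanol-oxidizing P450, had 9.7 ± 2.3 and 7.9 ± 1.6, and 5.9 ± 1.8 and 6.6 ± 0.9. Cyp3a11, a major hepatic drug oxidase, had 1.9 ± 1.4 and 1.8 ± 0.9, and 0.7 ± 0.6 and 2.0 ± 1.6. At levels of a few reads a change of the size of these SDs was not detectable, and a missed threshold does not show that the groups were alike.

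The Ugt1a genes share their last exons and differ in their first, each with a promoter of its own, and 7 Ugt1a symbols were in the table. Ugt1a2 and Ugt1a6a carry the same window (chr1:88101257-88103456, 2200 shared bases), so their values are 1 measurement (5.4 ± 0.6, 5.9 ± 3.0, 3.5 ± 3.1 and 4.8 ± 1.7) given under both names, and the 154 promoters have 153 positions. No other windows of the 154 overlapped. In GENCODE the start of Ugt1a6b lies within 50 bases of the start used for that window, whereas the starts of Ugt1a6a and Ugt1a2 lie 31552 and 97344 bases away. Ugt1a10, the first of the cluster and the lowest over the 4 groups, had 2.8 ± 1.7, 4.3 ± 1.1, 3.3 ± 4.7 and 5.3 ± 2.5. Ugt1a1, whose enzyme conjugates bilirubin, lies 156.5 kb downstream of it and was the highest, at 54.2 ± 16.5, 32.0 ± 7.1, 11.3 ± 6.1 and 20.9 ± 4.7. Of its 28 CG sites 67.9% were repeat-masked, and 57.4% of its 51-base sequences were unique. With the shared window counted under both names, all 7 symbols had ratios above 0 in FVB/N and 6 in C57BL/6J. The exception was Ugt1a1 with −0.74 for C57BL/6J and 0.83 for FVB/N. Of all promoters with 11 to 20 CG sites, 87.8% were above 0 in FVB/N and 56.9% in C57BL/6J. With equal medians 4 of the 7 were above 0 in FVB/N (39.8% of all promoters). The limma adjusted p of Ugt1a1 lay between 0.013 and 0.58 for C57BL/6J and between 0.20 and 0.90 for FVB/N.

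**Figure D5:**
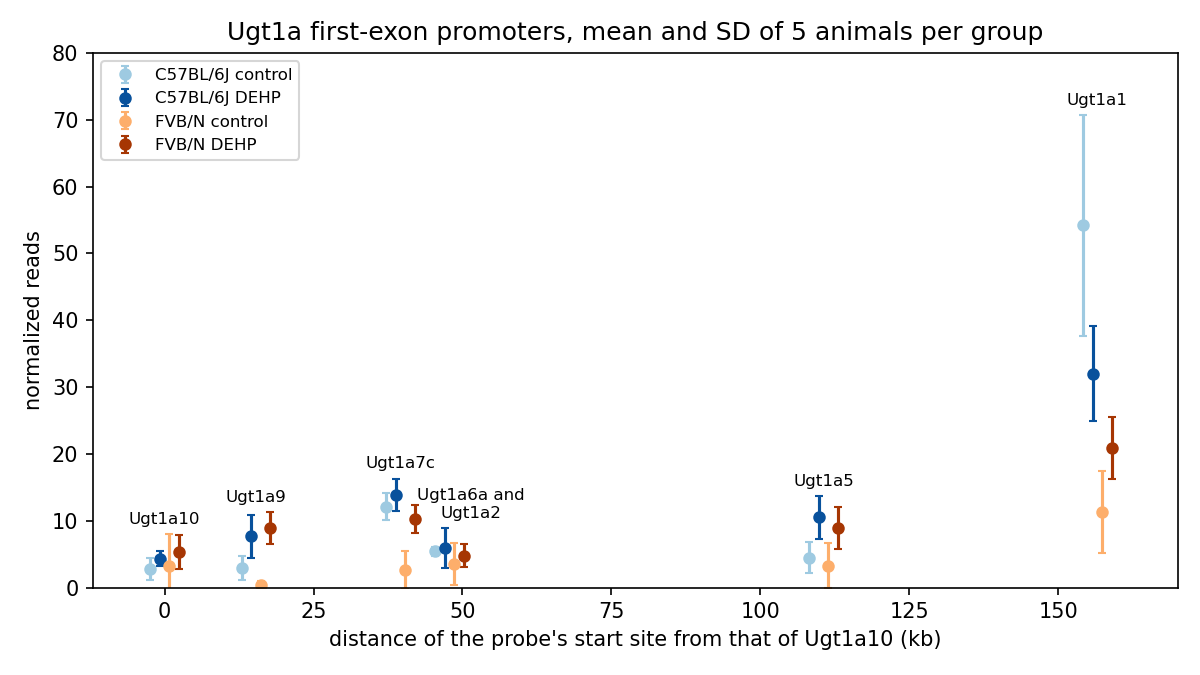
Normalized reads (mean and SD of 5 animals per group) at the Ugt1a windows, placed by the distance of their start site from that of Ugt1a10 in kb; points of the 4 groups are shifted sideways, and Ugt1a6a and Ugt1a2 are the same window. Ugt1a1 stands at 54.2 in C57BL/6J controls and 11.3 in FVB/N controls, above the other windows, and Ugt1a9 has its DEHP means above its control means in both strains.

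The second comparison asks whether the strains differed within the control or within the DEHP submission. Among controls 126 of 154 promoters had a higher mean in C57BL/6J (81.8%, against 82.1% of all promoters), with a median log2 ratio of C57BL/6J over FVB/N of 0.57, against 0.54 over all. Scaling removed most of this difference. With equal sums the ratio was above 0 at 81 promoters with a median of 0.06 (0.00072 over all), and with equal medians at 79 with a median of 0.03 (−0.04 over all). In the DEHP submission, as deposited, the ratio was above 0 at 85 (55.2%, against 53.1% of all), with a median of 0.06 (0.04 over all). Separation was shown among controls at 3 promoters higher in C57BL/6J, Ugt1a1, Ugt1a7c and Cyp26c1 (1.06% of all promoters called), and at 0 higher in FVB/N (0.0267% of all). In the DEHP submission it was shown at 0 in either direction (0.307% and 0.0311% of all). There limma also called 0 on each scale (as deposited 0.552% and 0.0489% of all). At an unadjusted limma p under 0.05 were 8, 9 and 10 of the 154 as deposited, with equal sums and with equal medians. These are 5.19%, 5.84% and 6.49%, beside 8.22%, 8.2% and 8.54% of all promoters. With equal sums the shares of all promoters separated between DEHP groups were 0.294% and 0.0356% and those called by limma 0.609% and 0.0489%, and with equal medians 0.258% and 0.0445%, and 0.414% and 0.0623%. By limma as deposited 5 promoters were higher in C57BL/6J controls and 0 in FVB/N controls (2.79% and 0.0489% of all). At an unadjusted limma p under 0.05 there were 35 of the 154 (22.7%, against 23.6% of all).

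Ugt1a1 had the largest strain ratio of the 3 among controls, 4.80-fold (log2 ratio 2.17, limma adjusted p between 0.0071 and 0.18 over the scales), followed by Ugt1a7c with 12.1 ± 2.0 against 2.6 ± 2.8 (1.86, between 0.042 and 0.62) and Cyp26c1 with 58.3 ± 11.5 against 25.6 ± 3.9 (1.16, between 0.019 and 0.85). With sums or medians of the groups made equal, 0 of the 154 separated between strains among controls and 0 passed limma. On either scale 7 (4.55%) were at an unadjusted limma p under 0.05, against 6.7% and 6.5% of all promoters. Of all promoters 0.307% and 0.111% separated with equal sums and 0.289% and 0.129% with equal medians, higher in C57BL/6J and higher in FVB/N, and limma called 0.133% and 0.0489%, and 0.125% and 0.0445%. The Ugt1a1 ratio then stood at 1.51 and 1.47. In the DEHP submission the same promoter had 32.0 ± 7.1 and 20.9 ± 4.7. Windows of the Ugt1a cluster held 0 to 12 variants between the strains, 4 in Ugt1a1 and 12 in Ugt1a7c, and the part of alignment to a C57BL/6J genome in these ratios was not tested. Over the 69 promoters with a variant the median strain ratio among controls was 0.62 and over the 85 without it 0.55.

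Whether DEHP acted differently in the strains was tested by the limma interaction. It called 0 of the 154 promoters on any scale (0.0712% of all promoters as deposited, 0.0133% with equal sums and 0.0222% with equal medians). At an unadjusted p under 0.05 there were 26, 8 and 7 of the 154 on these scales, 16.9%, 5.19% and 4.55%, beside 17.2%, 4.89% and 5.23% of all promoters. None separated in opposite directions. The smallest limma adjusted p as deposited was that of Cyp26c1 (0.11, between 0.11 and 1.0 over the scales).

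Expression values that the authors added from an independent testis dataset, whose scale is not stated, were listed for 110 of the 154 genes. Of these 9 reached 10 or more in at least 1 of 6 cell or tissue types (8.18%, against 12.8% of all listed genes), and 8 of the 9 are glutathione transferases. Gstm5 had the highest value, 13.9 in seminiferous tubules and 13.8 in spermatids, together with the lowest level of the Gstm promoters. Gstp1 (12.1) and Gsta4 (12) peaked in Sertoli cells and also had few reads, with means over the 4 groups of 2.08 and 2.90. The Gsta4 window is 9192 bases from the outermost GENCODE start, so it may not be the promoter in use. Gstt4 (12.2 in spermatids), Gsto2 (11.6) and the Sertoli-expressed Gstm1 (11.9), Gstm2 (13.3) and Gstm6 (12) had means of 8.85 to 17.9 reads, so a high expression value did not go with a low level at each of these promoters. The ninth, Cyp26b1, reached 10.2 in spermatogonia. These genes were chosen by the expression values alone. Over the 110 genes the level correlated with expression with a Spearman rho between 0.25 (Sertoli cells) and 0.37 (spermatids) over the 6 types. Over all 17133 listed genes rho lay between −0.15 (spermatogonia) and −0.01 (spermatids). Both quantities rise with CG sites among the 110 (rho of 0.51 for spermatid expression), and the correlations are descriptions across genes.

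Letters of 3 receptor or factor motifs were searched on both strands of the windows. The core of the xenobiotic response element, GCGTG, was present in 80 of 154 windows (51.9%) against 76.4% of all, with the most copies, 12, in Cyp1b1. At 1 to 10 CG sites the shares were 18.2% and 22.1%, at 11 to 20 sites 40% and 48.7%, at 21 to 40 sites 83.3% and 74.9%, and above 40 sites 100% and 92.5%. The consensus of the PPAR alpha response element (DR1) was in 0 of the 154 windows and in 0.387% of all, and the E-box CACGTG in 22.1% and 28.5%. A match is no evidence of binding, and its absence says only that these letters are not there.

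Other genes of xenobiotic clearance, a list of 51 reductases, carriers, nuclear receptors, hydrolases and dehydrogenases of which 50 were measured, gave few calls as well. By separation 1 was lower with DEHP in C57BL/6J, the pancreatic lipase Pnlip, 0 differed in FVB/N, and among controls Aldh3a1 was higher in C57BL/6J (1.42% and 1.06% of all promoters in these directions). With limma on all 3 scales 1 promoter, Aldh3a2, was higher with DEHP in C57BL/6J (2.33% of all), and 0 were called in FVB/N. With limma on equal medians alone Aldh3a2 was again higher in C57BL/6J (2.34% of all), 5 were lower there (Abcc3, Aldh3a1, Gclm, Lpl and Pnlip, 14.9% of all), and Gclm and Pnlip were lower in FVB/N (5.85% of all).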

How the data were processed

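Sperm DNA of 20 mice was enriched for methylated fragments and sequenced. The authors aligned read pairs to mm10 with Bowtie 0.12.7, removed pairs with several positions or no CG between their ends, counted the rest on each probe, kept probes with more than 3 pairs in more than 2 samples, normalized with edgeR and deposited the mean and SD per group of this signal, with 1 decimal. CG sites and variants between the strains in the window are counts that the authors deposited, and the expression values are scores the authors added from another dataset. The deposited fold changes, p-values and FDR of the authors' own comparisons were not used. Because the deposited values are group means and not counts of single libraries, tests planned for single libraries were replaced. The 154 promoters are those that passed this filter, and genes below it were not analysed here.

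Animals of a group of 5 lie within 1.79 SD of their mean, a bound widened here by a rounding step of 0.05, and groups whose bounds did not meet were called separated. A complete separation of 5 from 5 corresponds to an exact two-sided permutation p of 0.00794, the smallest possible. Moderated tests used limma 3.58.1 (R 4.3.3), with a trend of variance on level, Benjamini-Hochberg over 22480 promoters and a threshold of 0.05. They took the differences of group means in linear normalized reads and the variance averaged over the groups from their SDs, with a small variance added for rounding. Log2 ratios add a pseudocount of 1. Tested on simulated data for C57BL/6J, limma found 37 of 100 promoters changed 2-fold and 100 of 100 changed 4-fold, with 4 false calls of 22280 unchanged promoters. Separation found 14 and 87 of them and called 7 of the 22280. It found 108 of the 204 promoters whose simulated animals did not overlap and called 0 whose animals did. The changed promoters were drawn from those with at least 3 reads in C57BL/6J DEHP sperm, and were raised in controls only. All promoters were given the same extra spread between animals. Of the 154, 92 reached 3 reads in C57BL/6J controls and 63 in FVB/N controls. The shares found therefore do not carry over to promoters with fewer reads or to FVB/N. The numbers of false calls do not cover groups that differ in scale.

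Sequence, repeat masking and the share of 51-base sequences found once in the assembled chromosomes (every 20 bases) came from GRCm38.p6, where CG counts equalled the deposited ones at 97.4% of the 154 windows, and exons and starts from GENCODE M21. The authors' start was within 50 bases of GENCODE's for 121 of 152 genes and over 2000 bases away for 11. Exons of another gene lay in 27 windows. Genes named in the text are those separated in any comparison, those past limma with equal medians (where over 12 passed in a comparison, the 6 with the smallest p in each direction), the highest and lowest of each class and a list of 34 genes chosen by function, of which Cyp2c29 had no window. The members, lists and rules were chosen with earlier results of these data known. Labels name animals but not litters, so p-values measure the spread between these animals, and littermates cannot be told apart. Depth per library was not used here. The study's methods give more read pairs on average for DEHP than for control libraries, so depth cannot be told apart from treatment either. The precision of a mean is given by its SD and 5 animals.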

Additional observations from a re-analysis of the deposited data

How the results depend on the processing

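The number of promoters separated as deposited depended on the scale and the test. Those higher with DEHP in C57BL/6J went from 1 to 3 with equal sums, and limma gave 8 with equal medians, 9 as deposited, 24 with equal sums and 8 on all 3 scales. Those lower there went from 2 to 0 with equal sums, and limma gave 13 with equal medians and 8 as deposited. In FVB/N the 3 higher with DEHP became 9 by limma as deposited and 5 with equal sums, and the 1 lower became 2 with equal sums, 3 with equal medians, and 7, 2, 2 and 2 by limma with equal medians, as deposited, with equal sums and on all 3 scales. Among controls the 3 higher in C57BL/6J became 0 with equal sums, 0 with equal medians, 5 by limma as deposited and 0 by limma with equal medians, with equal sums and on all 3 scales. The equal-sums limma test and the rule of all 3 scales were added after seeing the data. The causes were not tested. A minimum mean of 1 read over groups and leaving out 1 of the 2 names of the shared Ugt1a window changed none of these counts by more than 1.5 times. The median log2 ratios moved more. For DEHP in C57BL/6J 0.16 became 0.63 with equal sums, 0.10 with equal medians and −0.0070 without the trend on CG sites, and in FVB/N 0.62 became 0.12 with equal medians and 0.057 without the trend. Between strains the 0.57 among controls became 0.062, 0.030 and 0.028 and the 0.06 in the DEHP submission 0.036, −0.038 and 0.0085 with equal sums, with equal medians and without the trend. A pseudocount of 0.1 gave 0.21 and 0.83 for DEHP in C57BL/6J and FVB/N. The spread of these medians between animals was not measured. No separated promoter changed direction under the scales run.

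No paired analysis was possible because the table used here gives group means and not each animal's value, and the labels name no pairing. For the same reason no replicate was left out.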
